A study of Mus musculus with 18 samples.

Results

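The HoxB cluster genes were followed across the body sites of mouse skin from which sorted dermal cells had been profiled. Of 10 HoxB genes, 9 had a probe set that names that gene alone on the array (Hoxb1, Hoxb2, Hoxb3, Hoxb4, Hoxb5, Hoxb6, Hoxb7, Hoxb9 and Hoxb13), out of 18193 genes measured in all. Hoxb8 was covered by a single probe set that it shares with Hoxb7 and was left out of the comparisons. Where a gene had several probe sets, the one with the highest mean over the 18 arrays stood for it and the others served as a check.

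RNA from sorted cells had been measured on Affymetrix mouse expression arrays, 3 arrays in each of 6 groups. All animals were untreated and carried R26mTmG, a reporter that turns cells from RFP to GFP once Cre has acted. EPF (GFP+ RFP-) and ENF (RFP+ GFP-) are cells with and without a history of En1Cre, which is driven by the Engrailed 1 gene, from the dorsal dermis of En1Cre; R26mTmG mice with age label P56, although the protocol text gives back skin at 30 days, which was not settled. Ventral and Dorsal are GFP+ cells from belly-side and back dermis of the same En1Cre; R26mTmG line, labelled P30. Oral (oral mucosa) and Cranial (cranial dermis) are GFP+ cells of Wnt1Cre; R26mTmG mice labelled P30, Wnt1Cre being a driver that marks the neural crest. Every population had been sorted as negative for CD31, CD45, Tie2, Tie119, EpCAM and DAPI. The sources used here do not give whether animals were pooled or whether replicates came from separate animals, so p-values measure the spread between these samples, which may be technical.

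Hox genes encode homeodomain transcription factors that give cells their position along the head to tail axis. Within a cluster the genes lie in the order in which they are used along the body, Hoxb1 at the anterior end and Hoxb13 at the posterior end, and adult fibroblasts of human skin are known to keep a Hox pattern that depends on their site. Neural crest cells of the face and jaw are known for low or absent Hox expression.

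The fibroblast genes Pdgfra, Col1a1, Col1a2, Col3a1, Dpt, Lum, Dcn and Fbln1 averaged log2 levels from 10.70 to 13.76 on every array, which fits the labelled cell type. The EPF and ENF arrays stood apart from the other 12, with correlations across genes of 0.872 to 0.926 between the sets against 0.946 to 0.998 among the site arrays, so array set and labelled age cannot be told apart. Dorsal was the most variable site (median SD per gene 0.28, against 0.10 to 0.14 in the other 3 sites), and Dorsal 1 had the lowest correlations with the arrays of its group (0.946 and 0.967). Ventral 1 correlated at 0.981 and 0.982 with the other Ventral arrays, which correlated at 0.997 with each other, and had the lowest fibroblast mean (10.70). Values below are log2 levels after the authors' RMA normalization, so a difference of 1 is a 2-fold change. A level was taken as above background where the group mean exceeded the 95th percentile of 84 probe sets for olfactory, vomeronasal, taste and trace amine receptors, which lay between 5.03 and 5.36 in the 6 groups.

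By that measure 7 of the 9 genes were above background in Ventral, 4 in Dorsal, 3 in Oral, 4 in Cranial, 3 in EPF and 5 in ENF. Hoxb2, Hoxb3 and Hoxb4, which lie toward the anterior end, were above background in every group on the probe sets that stood for them. On their other probe sets, Hoxb3 was under background in Oral alone and Hoxb4 in every group. Hoxb5, Hoxb6 and Hoxb9 were above it in Ventral and under it in Dorsal, Oral and Cranial. Some of these counts turn on values at the limit, with Hoxb5 at 5.39 in Ventral against a background level of 5.36, and Hoxb13, counted as above background in Cranial (5.03 against 5.03) and under it in Oral (5.10 against 5.12). In Ventral, Hoxb13 lay at 5.97, 5.36 and 5.12, so its mean was above the level of 5.36 through Ventral 1. Hoxb6 and Hoxb9 were each under that level on Ventral 2 (5.27 and 5.32). Hoxb1, a gene of hindbrain segment identity, stayed between 3.38 and 3.95 on all 18 arrays, and Hoxb7, whose promoter is widely used to mark the collecting duct of the kidney, stayed between 4.28 and 4.78. For those genes no difference could be measured on these probe sets, which does not show that the RNA was absent.

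**Figure D1:**
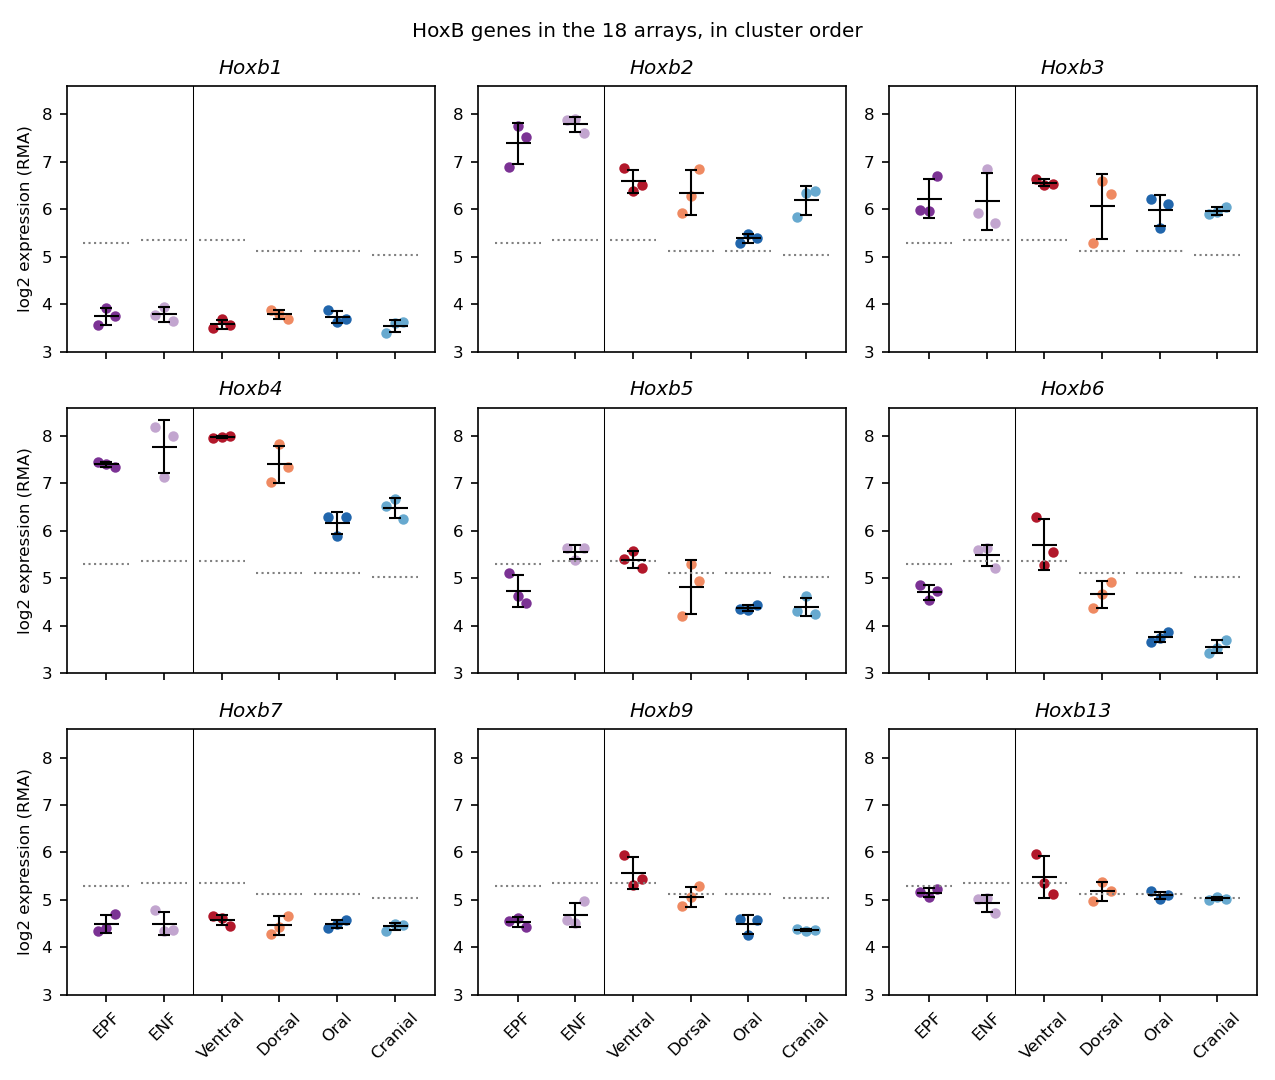
Log2 expression (RMA) of the 9 measured HoxB genes in cluster order, each point 1 array, the black bars the mean and SD of 3 arrays, and the dotted lines the background level of the group. Hoxb4 lies between 7.04 and 8.01 in the trunk arrays (Ventral and Dorsal) and between 5.89 and 6.68 in the head arrays (Oral and Cranial), while Hoxb1 and Hoxb7 stay under background in all groups.

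The promoters of Hoxb4, which separated trunk from head, and of Hoxb1, which stayed under background, are shown as the 250 bases before the annotated start in the RefSeq promoter table (GRCm38.p6, plus strand, chr11:96318017-96318266 for Hoxb4 and chr11:96365508-96365757 for Hoxb1). Among the 10 HoxB genes, 3 had an entry there (Hoxb1, Hoxb4 and Hoxb8). Capitals mark matches on either strand to TGATNNAT (a paired Pbx and Hox site), TGACAG (Meis and Prep factors), CCAAT (the NF-Y box), TATAAA (the TATA box) or AGGTCA (a nuclear receptor site such as that of retinoic acid receptors).
Hoxb4: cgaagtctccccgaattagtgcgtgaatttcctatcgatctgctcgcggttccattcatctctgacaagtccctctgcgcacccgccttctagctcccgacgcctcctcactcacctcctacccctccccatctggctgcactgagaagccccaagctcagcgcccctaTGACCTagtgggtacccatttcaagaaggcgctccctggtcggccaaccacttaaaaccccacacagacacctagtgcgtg
Hoxb1: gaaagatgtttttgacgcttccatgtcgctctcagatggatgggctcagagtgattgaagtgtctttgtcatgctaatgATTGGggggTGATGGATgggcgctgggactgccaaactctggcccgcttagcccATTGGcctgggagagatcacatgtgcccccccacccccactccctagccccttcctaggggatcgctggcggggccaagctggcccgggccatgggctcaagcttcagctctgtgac
The Hoxb4 window held 1 AGGTCA match, as TGACCT on the minus strand, and none of the other 4 motifs. The Hoxb1 window held 1 TGATNNAT match and 2 CCAAT matches on the minus strand, none overlapping. Of 32851 promoter windows of the same length, 7.68% held TGATNNAT, 15.9% TGACAG, 33.8% CCAAT, 12.4% TATAAA and 14% AGGTCA. A match is a string of letters in this window and no measured binding site.

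The first question was whether HoxB expression differed between trunk (Ventral and Dorsal) and head (Oral and Cranial). Hoxb2, Hoxb4, Hoxb5, Hoxb6 and Hoxb9 were higher in the trunk, and none of the 9 genes was lower. This was 5 of 9 genes at an adjusted p under 0.05 (limma over the 12 site arrays, Benjamini-Hochberg over all 18193 genes), where 13.9% of all genes were called higher and 18.1% lower. The median difference over the 9 genes was 0.68, against 0.05 over all genes. In bulk RNA fewer expressing cells and less RNA per cell cannot be told apart, and all trunk cells came from En1Cre and all head cells from Wnt1Cre, so site and Cre line cannot be told apart either.

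Hoxb4, a factor known for expanding blood stem cells when overexpressed, had levels of 7.95, 7.98 and 8.01 in Ventral and 7.04, 7.82 and 7.34 in Dorsal, against 6.29, 5.89 and 6.29 in Oral and 6.53, 6.68 and 6.26 in Cranial. All trunk arrays lay above all head arrays. The difference was 1.37 ± 0.14 (SE; adjusted p = 4.66e-05), or 2.58-fold. The second Hoxb4 probe set, which was under background in all 6 groups, differed in the same direction by 0.31 ± 0.09 (adjusted p = 0.0180).

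Hoxb6, expressed in lateral mesoderm and limb buds of the embryo, had levels of 6.30, 5.27 and 5.55 in Ventral and 4.38, 4.67 and 4.93 in Dorsal, against 3.66, 3.74 and 3.87 in Oral and 3.43, 3.54 and 3.71 in Cranial. The groups did not overlap, and the head levels lay under the lower quartile of all probe sets on the arrays (3.93 to 4.10). The difference was 1.52 ± 0.17 (adjusted p = 7.43e-05). Hoxb9, which acts in rib patterning, had levels of 5.95, 5.32 and 5.45 in Ventral and 4.87, 5.05 and 5.28 in Dorsal, against 4.61, 4.26 and 4.58 in Oral and 4.38, 4.35 and 4.37 in Cranial. Again no trunk array fell among the head arrays, and the difference was 0.90 ± 0.12 (adjusted p = 0.000353). Hoxb4, Hoxb6 and Hoxb9 were the 3 of 9 genes whose trunk arrays all lay above the head arrays, which held for 6.10% of all genes. For Hoxb5, Hoxb6 and Hoxb9 the mean of both sides was under background, so no fold is given.

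Hoxb2, a hindbrain gene, had levels of 6.87, 6.38 and 6.52 in Ventral and 5.92, 6.27 and 6.86 in Dorsal, against 5.29, 5.48 and 5.40 in Oral and 5.84, 6.34 and 6.38 in Cranial. Trunk and Cranial arrays overlapped, while every Oral array was lower than every trunk array. The difference between trunk and head was 0.68 ± 0.16 (adjusted p = 0.00941), or 1.61-fold. Hoxb5, a gene also active in enteric neural crest, had levels of 5.40, 5.57 and 5.21 in Ventral and 4.20, 5.30 and 4.94 in Dorsal, against 4.34, 4.33 and 4.44 in Oral and 4.32, 4.62 and 4.26 in Cranial. Dorsal 1 lay below all head arrays, and the difference was 0.72 ± 0.16 (adjusted p = 0.00726).

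Hoxb3, Hoxb13, Hoxb1 and Hoxb7 were not called. Hoxb13, the most posterior member and a gene of prostate and tail, had levels of 5.97, 5.36 and 5.12 in Ventral and 4.99, 5.39 and 5.18 in Dorsal, against 5.02 to 5.18 in Oral and 5.01 to 5.06 in Cranial. Its difference was 0.27 with a 95% interval of -0.02 to 0.57 (adjusted p = 0.142). Hoxb1 and Hoxb7 each differed by 0.05, with intervals of -0.13 to 0.23 and -0.13 to 0.24. Both were under background in every group.

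**Figure D2:**
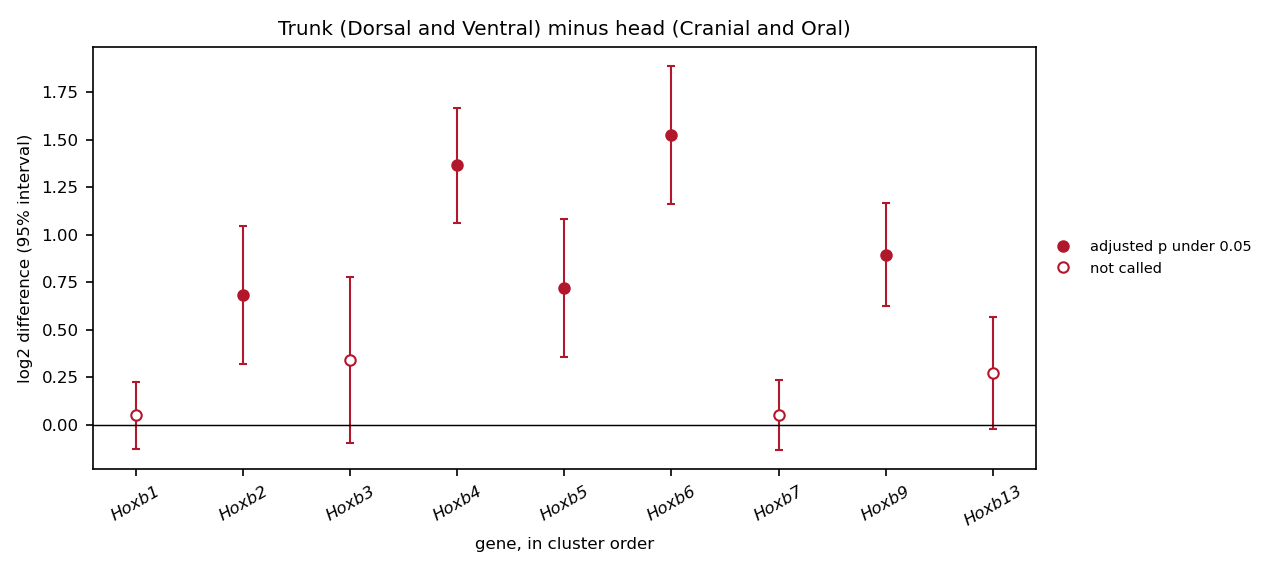
Log2 difference between trunk (Ventral and Dorsal) and head (Oral and Cranial) for each HoxB gene in cluster order, with the 95% interval; filled points have an adjusted p under 0.05. Hoxb4 differs by 1.37 and Hoxb6, under background on both sides, by 1.52, while the intervals of Hoxb1 and Hoxb7 (0.05 each, both under background) hold 0.

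The adipocyte marker list moved with this comparison. Of its 4 measured genes 3 were called higher in the trunk (median difference 1.03), as were 13.9% of all genes. The mean level of the list was 5.11 to 6.02 in Ventral and 5.40 to 6.80 in Dorsal, against 4.89 to 5.04 in Oral and 4.69 to 4.83 in Cranial. Adipoq averaged 5.47 in Ventral and 6.54 in Dorsal, against 3.71 in Oral and 3.67 in Cranial. Lep, among the 3 called higher, was under background on both sides, at 3.71 in Ventral and Dorsal, 3.49 in Oral and 3.39 in Cranial. Cidec was under background on both sides too. Other marker lists had calls with smaller median differences. Higher in the trunk were 3 of 7 endothelial genes (median 0.17), 2 of 7 leukocyte genes (0.28) and 2 of 8 fibroblast genes (0.15). Of 9 keratinocyte genes 3 were called higher and 1 lower (0.24). Over all genes 13.9% were called higher and 18.1% lower. Several genes of the keratinocyte, endothelial and leukocyte lists were under background in all 4 sites, among them Krt15 (3.88 to 4.21), Pecam1 (3.77 to 4.08) and Ptprc (3.90 to 4.21). The part of these lists in the HoxB differences was not tested. With each array centred on its median, the median of all genes moved by 0.19 toward the trunk, all 9 HoxB genes were called higher, Hoxb1 and Hoxb7 among them, and the share of higher genes among all calls was 77.3% in place of 43.4%.

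Single pairs of sites showed which genes carried these differences. Hoxb4, Hoxb6 and Hoxb9 were called higher in all 4 pairs of a trunk with a head site, and Hoxb1, Hoxb3, Hoxb7 and Hoxb13 in none. Between Ventral and Oral 5 of 9 genes were called higher (4.31% of all genes), between Ventral and Cranial 4 (6.20%), between Dorsal and Oral 4 (6.30%) and between Dorsal and Cranial 3 (7.45%). No HoxB gene was called lower in any of them, while 10.3%, 11.7%, 10.5% and 11.2% of all genes were, in the same order of pairs. These pairs share arrays, so their counts are not independent.

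Hoxb4 was 3.54-fold higher in Ventral than in Oral (difference 1.82 ± 0.19, adjusted p = 0.000178) and 2.81-fold higher than in Cranial (1.49 ± 0.19, adjusted p = 0.000653). Dorsal exceeded Oral by 1.24 ± 0.19 (adjusted p = 0.00165) and Cranial by 0.91 ± 0.19 (adjusted p = 0.00945), a call lost with only those arrays in the fit (adjusted p = 0.0705). On the second Hoxb4 probe set, under background, Ventral against Oral was called (0.42, adjusted p = 0.0410), and Ventral against Cranial, Dorsal against Oral and Dorsal against Cranial were not (adjusted p = 0.0778, 0.137 and 0.266). Hoxb6 was above background in Ventral and under it in the head, so no fold between the groups is given. Its Ventral mean lay 1.51-fold above the Oral background level and 1.60-fold above the Cranial background level. The Ventral background level was itself higher, at 5.36 against 5.12 and 5.03. Measured means were 5.71 in Ventral, against 3.76 in Oral and 3.56 in Cranial (limma adjusted p = 0.000377 and 0.00024). On the same terms the Ventral mean of Hoxb9 lay 1.37-fold above the Oral and 1.45-fold above the Cranial background level. Its measured means were 5.57 in Ventral, against 4.48 in Oral and 4.37 in Cranial (limma adjusted p = 0.00208 and 0.00114). Hoxb5 lay close to the Ventral background level itself (5.39 against 5.36), so no fold is given for it either. Its measured means were 5.39 in Ventral, against 4.37 in Oral and 4.40 in Cranial (limma adjusted p = 0.0136 and 0.0146).

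Hoxb2 was called against Oral and not against Cranial, and the difference between Oral and Cranial was itself not called (adjusted p = 0.208). It was higher in Ventral than in Oral by 1.20 ± 0.23 (adjusted p = 0.00601) and higher in Dorsal than in Oral by 0.96 ± 0.23 (adjusted p = 0.0166). Against Cranial the differences were 0.40 for Ventral (95% interval -0.11 to 0.91) and 0.16 for Dorsal (-0.35 to 0.68), neither of them called, although the lowest Ventral array lay level with the highest Cranial array (6.38 in both). For Hoxb6 and Hoxb9 the Dorsal means of 4.66 and 5.07 were themselves under background, with differences of 0.90 and 0.59 from Oral and 1.10 and 0.70 from Cranial (adjusted p = 0.0232 and 0.0406 against Oral, 0.00936 and 0.0185 against Cranial).

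Some of these calls lay near the threshold. Hoxb9 in Dorsal against Cranial was not called without any 1 of the Cranial arrays (adjusted p = 0.0588 to 0.0596), with the difference at 0.69 to 0.71 in place of 0.70. Without Oral 1 or Oral 3 Hoxb4 alone was still called in Dorsal against Oral, and Hoxb9 there was not called in 11 of 21 alternatives (adjusted p up to 0.155), among them those that leave out a Cranial array and keep its difference at 0.59. Hoxb5 in Ventral against Cranial was not called without Cranial 1, Cranial 3 or Ventral 2 (differences 0.95, 0.92 and 0.91, adjusted p = 0.0580, 0.0640 and 0.0567), nor in Ventral against Oral without Oral 2 or Ventral 2 (1.00 and 0.94, adjusted p = 0.0548 and 0.0577). With the arrays centred on their medians, the share of higher genes among all calls in the 4 pairs was 67.4% to 78.9%, in place of 29.4% to 40.0%.

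Among the genes above background in all 4 sites, the order of the site means was Ventral, Dorsal, Cranial, Oral for Hoxb2 and Hoxb4. For Hoxb3 it was Ventral, Dorsal, Oral, Cranial on the probe set that stood for it, where Oral and Cranial arrays overlapped. On the second Hoxb3 probe set, under background in Oral, the order was that of Hoxb2 and Hoxb4. Neighbouring sites in these orders did not differ at the threshold within the trunk or within the head. The middle pair, Dorsal and the next head site, was called for Hoxb4 and not for Hoxb2 or Hoxb3. Hoxb5, Hoxb6, Hoxb9 and Hoxb13 were under or at background in at least 1 of these sites, so no order is given for them.

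Within the En1Cre trunk groups none of the 9 genes was called between Ventral and Dorsal, where limma called 0.0275% of all genes. At an unadjusted p under 0.05 there were 4 (Hoxb4, Hoxb5, Hoxb6 and Hoxb9), all higher in Ventral, against 8.55% of all genes. Hoxb6 differed by 1.05 ± 0.23 (adjusted p = 0.300), Hoxb4 by 0.58 ± 0.19 and Hoxb9 by 0.50 ± 0.17 (adjusted p = 0.515 for both), and in these 3 all Ventral arrays lay above all Dorsal arrays, which held for 4.68% of all genes. Hoxb5 differed by 0.58 ± 0.23 (adjusted p = 0.557), and its groups overlapped. Hoxb1, under background, was the 1 gene whose Ventral arrays all lay below the Dorsal ones (5.44% of all genes). With array weights Hoxb6 was called (0.79, adjusted p = 0.00822).

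Within the Wnt1Cre head groups none of the 9 genes was called between Oral and Cranial, where limma called 0.407% of all genes higher and 0.731% lower. Hoxb2 was the 1 HoxB gene with an unadjusted p under 0.05, which 8.28% of all genes had. Its levels, 5.29 to 5.48 in Oral and 5.84 to 6.38 in Cranial, did not overlap, as in 12.6% of all genes on the lower side, and the difference was -0.80 ± 0.23 (adjusted p = 0.208). With only the 6 arrays of these groups in the fit, which leaves out the more variable Dorsal arrays, the adjusted p was 0.00115, and with array weights it was 0.00759.

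Hoxb3, a hindbrain and pharyngeal arch gene, gave different answers on its 2 probe sets. On the first, 1427605_at, it had levels of 6.64, 6.50 and 6.54 in Ventral and 5.29, 6.59 and 6.32 in Dorsal, against 6.23, 5.61 and 6.10 in Oral and 5.91, 5.93 and 6.05 in Cranial. Dorsal 1 was the lowest of the 12 arrays, and trunk and head differed by 0.34 ± 0.20 (adjusted p = 0.210). On the second, 1456229_at, the levels were 6.33, 6.22 and 6.40 in Ventral and 5.80, 6.57 and 6.16 in Dorsal, against 4.81, 5.29 and 4.90 in Oral and 5.80, 5.85 and 6.29 in Cranial. All Oral arrays lay below the others, and the Oral mean was under background. Trunk and head differed by 0.76 ± 0.15 (limma adjusted p = 0.00280), and Oral and Cranial by -0.98 ± 0.21 (adjusted p = 0.0521). The difference between the probe sets was not tested. Which transcripts each probe set reads was not analysed here.

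**Figure D3:**
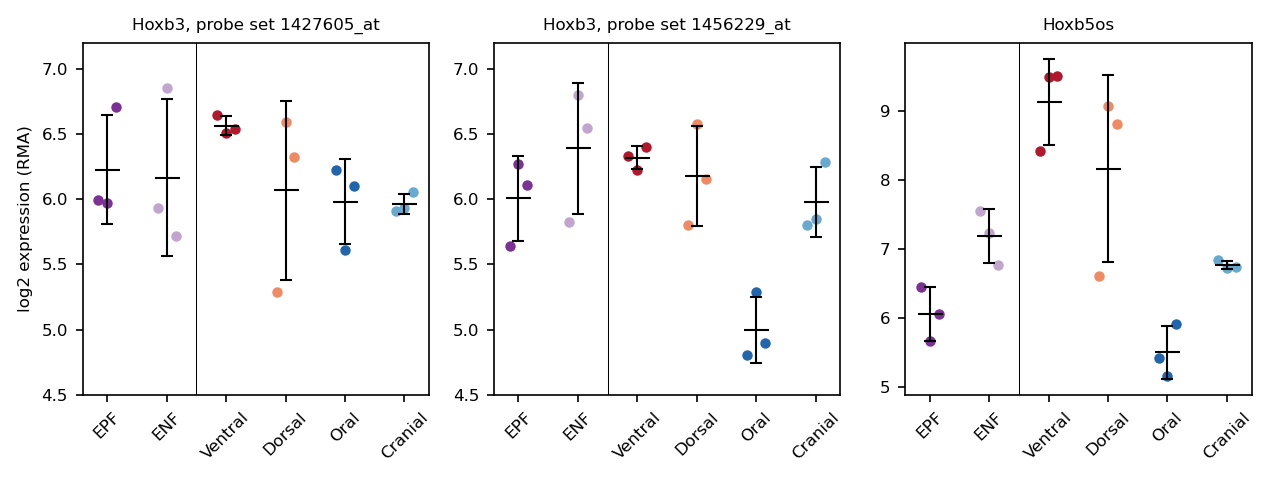
Log2 expression (RMA) of both Hoxb3 probe sets and of Hoxb5os, each point 1 array, with the mean and SD of 3 arrays. The second Hoxb3 probe set lies at 4.81 to 5.29 in Oral and the first at 5.61 to 6.23, and Hoxb5os is lower in Dorsal 1 (6.61) than in the other trunk arrays (8.41 to 9.50).

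EPF and ENF cells came from the same dorsal dermis, and none of the 9 HoxB genes was called between them (limma over 6 arrays, 0.308% of all genes called). At an unadjusted p under 0.05 there were 2, Hoxb5 and Hoxb6, against 10.8% of all genes. Hoxb5 had levels of 5.12, 4.63 and 4.47 in EPF and 5.63, 5.38 and 5.63 in ENF, a difference of -0.81 ± 0.20 (adjusted p = 0.194). Hoxb6 had levels of 4.86, 4.54 and 4.72 in EPF and 5.59, 5.64 and 5.23 in ENF, a difference of -0.78 ± 0.18 (adjusted p = 0.168). In both genes all EPF arrays lay below all ENF arrays, which held for 8.34% of all genes, and EPF was under background. Hoxb4 (7.35 to 7.45 in EPF and 7.14 to 8.20 in ENF), Hoxb2 (6.90 to 7.75 and 7.60 to 7.90) and Hoxb3 (5.97 to 6.71 and 5.72 to 6.85) overlapped.

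Markers of other cells moved with this comparison. The keratinocyte list averaged 4.25 to 8.11 in EPF and 7.95 to 10.26 in ENF (median difference -3.39, 1 of 9 genes called lower), and the skeletal muscle list 4.41 to 4.70 in EPF and 5.73 to 6.73 in ENF (2 of 8 called lower). The mural and smooth muscle list averaged 8.93 to 9.17 in EPF and 7.35 to 7.43 in ENF, with 3 of 7 genes called higher. EPF 2 and ENF 1 were also low in Xist, an RNA of the inactive X chromosome, at 5.2 and 4.98 against 10.48 to 12.13 on the other 16 arrays, and without both again 0 HoxB genes were called. The part of these in the HoxB values was not tested.

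EPF and Dorsal are both labelled as GFP+ cells of dorsal dermis of En1Cre mice, from different array sets and labelled ages. None of the 9 genes was called between them, where 10.9% of all genes were called higher and 5.94% lower. Cell markers differed, with 5 of 8 fibroblast genes called higher in EPF (median difference 1.32). Of the mural and smooth muscle genes, 4 of 7 were called higher and 2 lower, while every other marker list had at most 1 called gene. The part of these markers in the HoxB values was not tested. Hoxb2 had levels of 6.90, 7.75 and 7.52 in EPF and 5.92, 6.27 and 6.86 in Dorsal, a difference of 1.04 ± 0.32 (adjusted p = 0.0714), and Hoxb9 had levels of 4.56, 4.62 and 4.43 in EPF and 4.87, 5.05 and 5.28 in Dorsal, a difference of -0.53 ± 0.17 (adjusted p = 0.0770). The groups did not overlap in either, as in 20.2% of all genes on the higher and 16.3% on the lower side. Hoxb4 differed by 0.01 (95% interval -0.52 to 0.53). Without Dorsal 1 Hoxb9 was called (adjusted p = 0.0328) and without Dorsal 3 Hoxb2 (0.0284); with the arrays centred, higher genes made up 49.9% of all calls in place of 64.6%, and the median of all genes moved by -0.16.

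**Figure D4:**
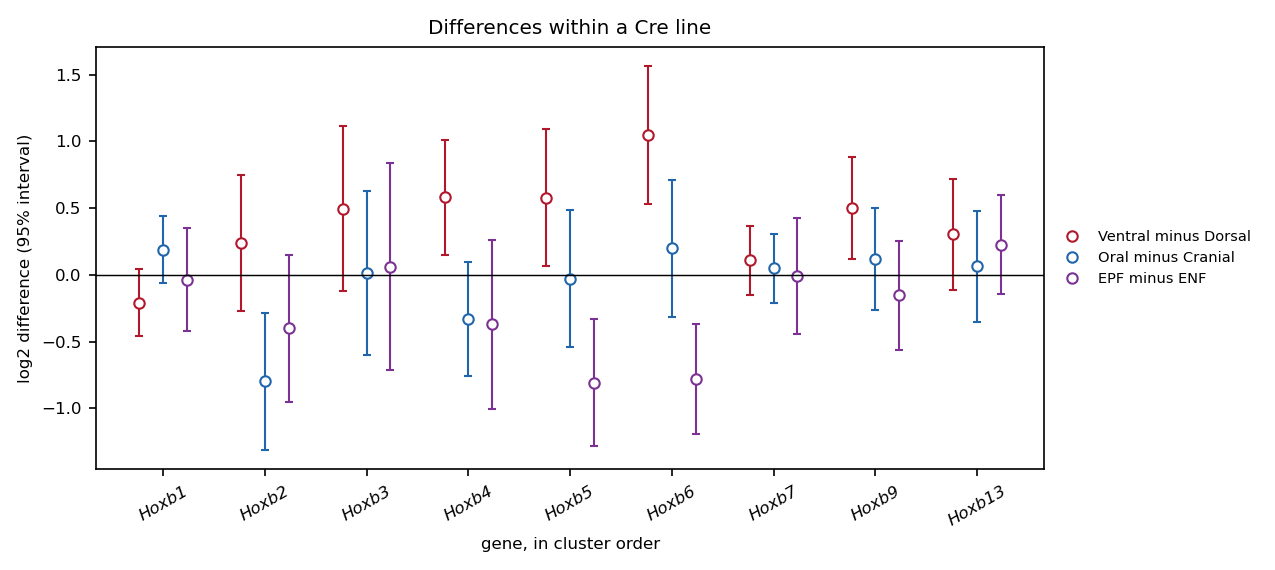
Log2 differences with 95% intervals between Ventral and Dorsal, Oral and Cranial, and EPF and ENF for each HoxB gene in cluster order; open points were not called. No gene passed the threshold in any of the 3, with Hoxb6 at 1.05 between Ventral and Dorsal, Hoxb2 at -0.80 between Oral and Cranial and Hoxb5 at -0.81 between EPF and ENF.

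Of 14 measured genes flanking the cluster or lying within it, 4 were called higher in the trunk and 2 lower, where 13.9% of all genes were called higher and 18.1% lower (median difference 0.14, against 0.05 over all genes). Among the 4, Calcoco2 (3.38 in the trunk and 3.16 in the head) and Gip (4.52 and 4.27) were under background on both sides. Hoxb5os, an antisense RNA that overlaps Hoxb5 and Hoxb6 in the RefSeq gene table, had levels of 8.41, 9.48 and 9.50 in Ventral and 6.61, 9.07 and 8.80 in Dorsal, against 5.42, 5.17 and 5.92 in Oral and 6.84, 6.73 and 6.74 in Cranial. Dorsal 1 alone overlapped the head arrays, and the difference was 2.51 ± 0.38 (adjusted p = 0.000723). Dorsal differed from Cranial by 1.39 (adjusted p = 0.101), and by 2.17 without Dorsal 1 (adjusted p = 0.000486). Oral and Cranial did not overlap, with a difference of -1.27 (adjusted p = 0.555), called without Dorsal 1 (0.0379), with array weights (0.000316) or with these 6 arrays alone (4.00e-05). The strand read by the labelling is not given, so signal from overlapping genes on opposite strands may not be separable.

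Among protein-coding neighbours, Snx11, a sorting nexin, was higher in the trunk by 0.44 ± 0.07. Copz2, a coat protein of vesicles, and Nfe2l1, a stress-response transcription factor, were lower there, with differences of -0.91 ± 0.11 and -0.80 ± 0.09 (adjusted p = 0.00116, 0.000173 and 9.37e-05 for the 3 genes). No flanking gene was called between Ventral and Dorsal, Oral and Cranial, or EPF and ENF, and Copz2 was higher in EPF than in Dorsal by 1.43 ± 0.21.

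The TALE homeodomain cofactors, which bind DNA together with Hox proteins, were called lower in the trunk in 3 of 8 genes and higher in none (median difference -0.21), against 18.1% lower and 13.9% higher over all genes (median 0.05). Pbx2 fell by 0.81 (adjusted p = 0.00129) and Pknox2 by 0.80 (adjusted p = 0.00276), but with the mean over all probe sets of a gene neither was called (Pbx2 -0.27, adjusted p = 0.0695; Pknox2 -0.26, adjusted p = 0.0679). Meis1, another of these cofactors, was not called between trunk and head, and its 2 head sites differed. It fell by 2.21 in Oral against Cranial (adjusted p = 0.000246), was lower in Ventral and Dorsal than in Cranial (-1.10 ± 0.21 and -1.49 ± 0.21) and higher than in Oral (1.12 ± 0.21 and 0.72 ± 0.21). With the mean over the Meis1 probe sets the differences from Cranial were -0.02 for Ventral and -0.15 for Dorsal (adjusted p = 0.912 and 0.417), and the call between Dorsal and Oral was lost in 12 of 21 alternatives. Pknox2 was 1.71 ± 0.22 higher in EPF than in Dorsal.

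Known upstream regulators of Hox genes were called higher in the trunk in 2 of 14 genes and lower in 5 (median difference 0.04), beside all-gene shares of 13.9% and 18.1% (median 0.05). Crabp2, a retinoic acid binding protein, averaged 5.43 ± 0.23 in Ventral and 5.58 ± 0.34 in Dorsal, against 8.83 ± 0.34 in Oral and 7.82 ± 0.16 in Cranial (SD, n = 3 each). It fell by 2.82 in the trunk in limma (adjusted p = 5.92e-07). Egr2, which activates Hoxb2 in the hindbrain and is also an immediate early gene, fell by 2.34 (adjusted p = 4.47e-05). Aldh1a3, a retinoic acid synthesis enzyme, was higher by 0.43 ± 0.15 (adjusted p = 0.0439), a call lost in 8 of 20 alternatives. Cdx4, a caudal homeobox factor and the other gene called higher, was under background in all 6 groups (3.24 to 3.57), and its call was lost in 11 of 19 alternatives. Aldh1a2, another retinoic acid synthesis enzyme, was 2.07 ± 0.27 higher in Oral than in Cranial, where it was under background (4.83). Aldh1a3 and Rarb, a retinoic acid receptor, were 2.08 ± 0.40 and 1.84 ± 0.21 higher in EPF than in Dorsal, where Rarb was under background (3.95).

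Polycomb and Trithorax genes, which keep Hox genes silent or active through chromatin, were called higher in the trunk in 5 of 26 and lower in 10 (median difference -0.21), with 13.9% higher, 18.1% lower and a median of 0.05 over all genes. Ctcf, the insulator protein that divides Hox clusters into domains, was higher by 1.04 ± 0.09 and Mtf2, an accessory Polycomb subunit, by 0.57 ± 0.14. Rnf2 and Ring1, the ubiquitin ligases of Polycomb complexes, fell by 1.26 and 1.06 (adjusted p = 2.16e-05, 0.0109, 1.72e-05 and 0.000434). With the mean over all probe sets of a gene, Ctcf (0.23, adjusted p = 0.10) and Mtf2 (0.07, adjusted p = 0.688) were not called, and the difference for Rnf2 was -0.18 (adjusted p = 0.0480). None of the 26 was called between Ventral and Dorsal, Oral and Cranial, or EPF and ENF. Between EPF and Dorsal 5 were higher and 3 lower, where 10.9% and 5.94% of all genes were. Ezh1 was higher by 1.61 ± 0.17 and Cbx7 by 1.37 ± 0.16, the call for Cbx7 being lost with the mean over its probe sets (0.37, adjusted p = 0.112). Ash2l fell by 1.06 and Ctcf by 0.80, calls lost in 5 of 14 and 8 of 14 alternatives.

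The other Hox clusters gave trunk calls in different numbers. HoxC had 6 of 7 genes called higher (median 2.24), HoxA 5 of 9 higher and 1 lower (0.61), and HoxD 2 of 8 higher (0.09), where 13.9% of all genes were called higher and 18.1% lower (median 0.05). Hoxd11, among the HoxD genes called higher, was under background on both sides, at 4.09 in the trunk and 3.84 in the head. For HoxD the head sites lay apart, with Hoxd8 at 9.19 in Cranial and 5.34 in Oral, against 8.76 in Dorsal and 7.87 in Ventral. Against Cranial 0 of 8 HoxD genes were called higher in Dorsal or Ventral (7.45% and 6.20% of all genes). Called lower were 1 and 2 (11.2% and 11.7%). Against Oral 3 of 8 were called higher in each (6.30% and 4.31%) and 0 lower (10.5% and 10.3%). Among the paralogs of the HoxB genes described above, trunk and head differed by 2.39 ± 0.11 for Hoxc4. Its means were 7.80 in Ventral and 8.24 in Dorsal, against 6.58 in Cranial and 4.69, under background, in Oral. Hoxa4 was under background in every group (3.25 to 3.41), so no difference could be measured for it. In paralog group 9 Hoxa9 was higher by 5.15 ± 0.26 and Hoxc9 by 2.24 ± 0.10, while Hoxd9 was not called (0.51 ± 0.22, adjusted p = 0.0976). Hoxa9 was under background in the head, at 4.44 in Oral and 4.75 in Cranial. Hoxd9 averaged 7.55 in Ventral and 7.51 in Dorsal, against 5.88 in Oral and 8.15 in Cranial. Hoxa2, the HoxA paralog of Hoxb2 and the 1 gene called lower, was under background in all 4 sites, with means of 3.23 in Ventral and 3.35 in Dorsal, against 3.18 in Oral and 5.02 in Cranial.

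The 5 genes outside the cluster whose levels followed the HoxB genes most closely were ranked by Pearson r over the 12 site arrays with the mean of the 7 HoxB genes that were above background in at least 1 site. Hoxb5, Hoxb6 and Hoxb9 entered that mean through Ventral alone, the site in which they were highest. The 5 genes were Cyp24a1 (r = 0.952), Zbtb7a (0.949), Ppp4r4 (0.945), Ajap1 (0.944) and Mchr1 (0.941). Zbtb7a averaged 8.05 in Ventral and 7.42 in Dorsal, against 6.12 in Oral and 6.16 in Cranial. Cyp24a1 (4.31 to 4.88) and Ajap1 (3.90 to 4.37) were under background in all 4 sites. These values describe arrays that share groups and normalization, and the genes were picked for them.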

How the data were processed

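The authors deposited log2 expression values per probe set for 18 arrays, made with RMA (robust multichip average) and then quantile-normalized, per the labels' design text and the submitters' processing notes. No source used here gives versions or says whether that was 1 run over all arrays. Of 45101 probe sets, 64 were controls, 34945 had 1 gene symbol, 932 several and 9160 none in the platform annotation, and 34741 of the single-symbol ones matched a RefSeq gene by Entrez ID. Each of 18193 genes was represented by the probe set with the highest mean.

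Comparisons were fitted with limma 3.58.1 in R 4.3.3 (group means, eBayes, two-sided, Benjamini-Hochberg over all genes, called at adjusted p under 0.05), in a fit of the 12 site arrays or of the 6 arrays of EPF with ENF or Dorsal, and tested on simulated data. Arrays carry no read depth, and 3 arrays per group limit the precision. All measured HoxB genes are named; from each other list up to 2 called genes per direction with the largest difference; paralogs only by shared number. Members and lists were chosen with earlier results of these data known. Alternatives covered the arrays fitted, array weights, eBayes settings, dim genes, scaling, probe set choice, the replicate block and each array left out.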

Additional observations from a re-analysis of the deposited data

Results flagged for a closer look

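The probe set shared by Hoxb8 and Hoxb7, which the comparisons leave out, was above background in Ventral, with a mean of 5.47 against a background level of 5.36, and under background in the other 5 groups. It had levels of 5.31, 5.63 and 5.48 in Ventral and 4.63, 4.92 and 4.90 in Dorsal, against 4.44, 4.41 and 4.27 in Oral and 4.53, 4.29 and 4.39 in Cranial. All trunk arrays lay above all head arrays (difference 0.76 ± 0.09, limma adjusted p = 0.000113), and all Ventral above all Dorsal arrays (0.65 ± 0.12, adjusted p = 0.203). The probe set does not tell which of both genes was read, while the probe set of Hoxb7 alone stayed between 4.28 and 4.78.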

How the results depend on the processing

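Of 650 alternative values for HoxB genes, 597 kept direction and side of the threshold, 31 lost and 22 gained a call and none reversed. They cover 34 differences, taken because they were called, were large or were called on a second probe set. Smaller uncalled differences were not followed there, so calls they gained, as with centring or array weights, are missing from this tally. Of 1574 values for genes of the other lists, 1417 kept both, 147 lost and 10 gained a call and none reversed. Those cover 79 differences, nearly all picked because they were called, so few could gain a call. Centring each array on its median gave 9 trunk against head calls in place of 5, and 1 for EPF against Dorsal in place of 0. Array weights gave 7 calls for Dorsal against Cranial and 7 for Dorsal against Oral in place of 3 and 4, 1 for Ventral against Dorsal, 2 for Oral against Cranial and 2 for EPF against Dorsal, each in place of 0. With only the groups compared in the fit there were 2 calls for Dorsal against Oral and 1 for Oral against Cranial. For EPF against Dorsal a fit over all 18 arrays gave 2 calls, and quantile normalization of the fitted arrays gave 1. Leaving out 1 array at a time gave 2 to 5 calls for Dorsal against Cranial (5 without Dorsal 1), 1 to 5 for Dorsal against Oral (5 without Dorsal 1, 1 without Oral 1 or Oral 3) and 0 to 1 for EPF against Dorsal. The causes of these changes were not tested.

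Over 21 pairs of same-numbered arrays, the deviations from the group means correlated at -0.38 to 0.30, and 4 pairs were over 0.1. Whether replicate numbers pair the samples cannot be settled this way, since deviations within a group of 3 arrays are tied to each other. With the replicate number as a block, 1 gene (Hoxb2, adjusted p = 0.0496) was called for EPF against Dorsal in place of 0, and Hoxb9 was not called for Dorsal against Oral (adjusted p = 0.0503), leaving 3 calls; no other HoxB count changed. The alternative without the arrays low in Xist was chosen after seeing the data. Hoxb1, Hoxb5, Hoxb6, Hoxb7, Hoxb9 and Hoxb13 lay near or under background in most groups, which limits what small differences can show.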
